A study of Mus musculus with 8 samples.

Results

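The genes described here are 9 members of the meiotic strand invasion machinery, *Dmc1*, *Mnd1*, *Psmc3ip*, *Rad51ap1*, *Brca2*, *Hsf2bp*, *Rpa1*, *Meiob* and *Spata22*. They were chosen by symbol from the 40840 genes listed in the count tables, and all 9 were found and passed the filter on low counts. RNAseq was carried out on whole testes at 12 days after birth (P12), taken from 4 wild type animals and 4 animals of the genotype *Tra2b-cPEko*. The mice were C57BL/6J, and each library came from a different animal, named by the letters A to D within its genotype.

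Wild type mice were *Tra2bPE fl/+* and carried no *Vasa-Cre*. The *Tra2b-cPEko* mice were *Tra2bPE fl/-* with *Vasa-Cre*, where the minus sign is an allele without the poison exon. Each genotype thus held at least 1 floxed allele of the *Tra2b* poison exon. *Vasa-Cre* is active in germ cells, so Sertoli, Leydig and other somatic cells of *Tra2b-cPEko* testes kept 1 floxed copy of the exon. Somatic cells of wild type testes had both copies. An effect of the transgene and of the exon cannot be told apart. Counts over the whole *Tra2b* gene do not measure the deleted exon. They were 163.8 ± 8.93 CPM (mean ± SD, n = 4) in wild type and 197.8 ± 8.49 CPM in *Tra2b-cPEko* testes, and the paralogue *Tra2a* stood at 128.6 ± 15.3 and 69.5 ± 3.36 CPM. CPM is the usual count of a gene per 1 M counts of its library, here after TMM scaling. Libraries held 36757386 to 59101569 reads on genes.

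Meiotic recombination starts with programmed DNA breaks, whose ends are cut back to single-stranded DNA. RPA, a trimer that holds RPA1, covers this DNA first, together with the meiotic proteins MEIOB and SPATA22. BRCA2, brought to meiotic breaks by HSF2BP, helps to replace RPA with filaments of recombinase, among them the meiosis-specific DMC1. The filament then searches for and invades the homologous chromosome, a step helped by the heterodimer of MND1 and PSMC3IP (also named HOP2) and by RAD51AP1. In the first wave of spermatogenesis these steps take place in leptotene and zygotene spermatocytes, the most advanced germ cells in most tubules at P12.

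No member passed the threshold used here, which was an edgeR quasi-likelihood p under 0.05 after adjustment by Benjamini-Hochberg over 19104 genes. Of all genes tested 0.157% did. The targeted gene *Tra2b*, higher in *Tra2b-cPEko* testes without overlap, also missed this threshold. Its adjusted p was 0.0552 from edgeR and 0.000195 from DESeq2. *Mnd1* and *Rpa1* were the members in which every *Tra2b-cPEko* mouse lay below every wild type mouse, with fitted changes of -25.2% and -8.89%, a separation in this direction that 4.18% of all genes showed. DESeq2, the test used in the study, gave both an adjusted p under 0.05, as it did for 1.14% of all genes in this direction. The recombinase gene *Dmc1* and the loader gene *Brca2* overlapped between genotypes.

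The sequences upstream of *Mnd1* and of its partner gene *Psmc3ip* are shown because their products work as a pair, while the genotypes separated in *Mnd1* and overlapped in *Psmc3ip*. Each is the 250 bases before the RefSeq start of the gene, written 5′ to 3′ on the strand of the gene. Sequences are from a RefSeq table made on GRCm38.p6, and coordinates are of an exact match on GRCm39. They are chr3:84063094-84063343 and chr11:100986262-100986511, both on the minus strand, and the GENCODE starts lie 20 and 15 bases before the RefSeq starts. For *Rpa1* this distance is 246 bases, so that nearly all of its window lies inside the annotated gene and is not printed. Capitals mark matches on either strand to the GC box (in *Mnd1*) and the CCAAT box (in *Psmc3ip*).
Mnd1: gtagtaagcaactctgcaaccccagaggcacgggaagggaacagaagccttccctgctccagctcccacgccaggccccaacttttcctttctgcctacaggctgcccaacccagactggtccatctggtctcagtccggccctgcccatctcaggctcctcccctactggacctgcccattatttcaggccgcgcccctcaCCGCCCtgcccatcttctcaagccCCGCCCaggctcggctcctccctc
Psmc3ip: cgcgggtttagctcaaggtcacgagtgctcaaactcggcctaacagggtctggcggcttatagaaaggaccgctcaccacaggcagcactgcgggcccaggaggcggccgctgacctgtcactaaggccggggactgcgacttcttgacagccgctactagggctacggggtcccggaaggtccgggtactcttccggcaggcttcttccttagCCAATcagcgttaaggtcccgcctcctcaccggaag

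In windows of 300 bases (250 before and 50 after the start), the GC box letters GGGCGG were found in *Mnd1*, *Rpa1* and *Dmc1*, that is in 3 of the 8 members with an entry in the table, and in 35.7% of 32851 promoters. The CCAAT letters were found in 4 of the 8 (*Psmc3ip*, *Spata22*, *Rpa1* and *Rad51ap1*) and in 37.4% of promoters, and the E box, CACGTG, in *Rpa1* and in 7.15%. The motif CNCCTCAG, known for the meiotic initiator STRA8, was found in *Rad51ap1* and in 7.94% of promoters, and of the E2F forms searched TTTGGCGC was found in *Dmc1* (0.514% of promoters) and TTTCGCGC in no member (0.323%). No motif searched contains another, and both strands were read. The RefSeq starts of *Spata22* and *Hsf2bp* lie 3164 and 1886 bases inside the GENCODE gene, so their windows, like that of *Rpa1*, are not those before the outermost annotated start. CpG dinucleotides numbered between 12 in *Mnd1*, the lowest of the 8, and 33 in *Rpa1*, against a median of 7 over all promoters. Among these 8 windows *Mnd1* and *Rpa1* were the lowest and the highest in this measure, though the *Rpa1* window lies mostly inside the annotated gene.

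*Dmc1* (GRCm39 chr15:79445691-79489351, minus strand) encodes the recombinase that only meiotic cells use. Wild type replicates A, B, C and D had 118.0, 103.5, 89.0 and 91.8 CPM, and the *Tra2b-cPEko* replicates had 96.3, 95.1, 94.6 and 90.6 CPM. The *Tra2b-cPEko* values all lay inside the range of the wild type, whose top was set by replicates A and B. The means were 100.6 ± 13.2 and 94.2 ± 2.48 CPM (SD, n = 4 each). edgeR fitted a log2 fold change of -0.09, of which the standard error was 0.08 and the 95% interval -0.26 to 0.08, and the edgeR adjusted p was 0.588. The data therefore limit the difference to this interval and do not show that the genotypes were equal.

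*Mnd1* (chr3:83994164-84063113, minus strand), which encodes a subunit of the exchange heterodimer, was counted with 224 to 438 reads per mouse. Wild type testes had 9.75, 9.30, 7.59 and 7.42 CPM in replicates A to D, and *Tra2b-cPEko* testes had 6.23, 6.10, 6.39 and 6.73 CPM. The highest *Tra2b-cPEko* mouse stayed below the lowest wild type mouse, and the wild type values fell into a higher pair, A and B, and a lower pair, C and D. On the log2 scale *Tra2b-cPEko* minus wild type was -0.42 (standard error 0.10, 95% interval -0.65 to -0.19), the largest in size among the members, with an edgeR p of 0.00162 and an adjusted p of 0.114. DESeq2 gave the same fold change, -0.42, with an adjusted p of 0.0208. In the two-sided exact permutation test over 70 arrangements of the 8 mice p was 0.0286, the smallest this design allows.

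The DESeq2 call of *Mnd1* remained without wild type replicate C (adjusted p = 0.00825) or D (0.011) and was lost without any other single mouse, with an adjusted p of up to 0.160 from DESeq2 without wild type replicate A. With edgeR the adjusted p was between 0.0594 and 0.292 over the 14 alternatives run with edgeR or limma. The fold change kept its sign in all 23 alternatives and lay between -0.48 and -0.35. A pseudogene, *Mnd1-ps*, shares 97.2% of 614 bases with *Mnd1* and held 0 or 1 counts per library.

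*Psmc3ip* (chr11:100981704-100986276, minus strand) encodes the other subunit of the heterodimer. Its values were 24.4, 26.4, 18.2 and 18.2 CPM in wild type replicates A to D and 17.8, 18.4, 20.7 and 20.2 CPM in *Tra2b-cPEko* replicates. Replicates A and B of the wild type stood above every other mouse, while wild type C and D lay among the *Tra2b-cPEko* mice. The fitted difference was -0.18 on the log2 scale, with standard error 0.12 and 95% interval -0.45 to 0.09, and the edgeR adjusted p was 0.519. *Psmc3ip* overlaps *Mlx*, a protein-coding gene on the other strand with 781 to 1309 counts per library, and whether counting used the strand is not given in the sources used here.

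Within each mouse *Mnd1* reads were 35.2% to 41.7% of *Psmc3ip* reads in wild type and 30.9% to 35.1% in *Tra2b-cPEko* testes. On the log2 scale the ratio ranged from -1.50 to -1.26 and from -1.69 to -1.51, so that the genotypes did not overlap, although wild type B at -1.50 was next to *Tra2b-cPEko* A at -1.51. The mean log2 ratio differed by -0.25 (*Tra2b-cPEko* minus wild type). The ratio is a description with no test. It compares mice and not the levels of the pair, since reads were not divided by length in it.

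*Rad51ap1* (chr6:126899446-126916587, minus strand) encodes a protein that binds recombinase and promotes joint formation. Wild type testes had 33.9, 32.1, 28.3 and 30.0 CPM in replicates A to D, and *Tra2b-cPEko* testes had 26.8, 29.3, 27.4 and 26.9 CPM. In 3 of 4 *Tra2b-cPEko* mice the value was under the lowest wild type mouse, and replicate B overlapped it. edgeR fitted a log2 fold change of -0.17, of which the standard error was 0.06 and the 95% interval -0.31 to -0.03. Its adjusted p was 0.249 in edgeR and 0.175 in DESeq2. The exact permutation p was 0.0571. DESeq2 without wild type replicate C gave an adjusted p of 0.0455, the single alternative of 23 in which *Rad51ap1* passed, and 1025 of all genes passed in that fit.

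**Figure D1:**
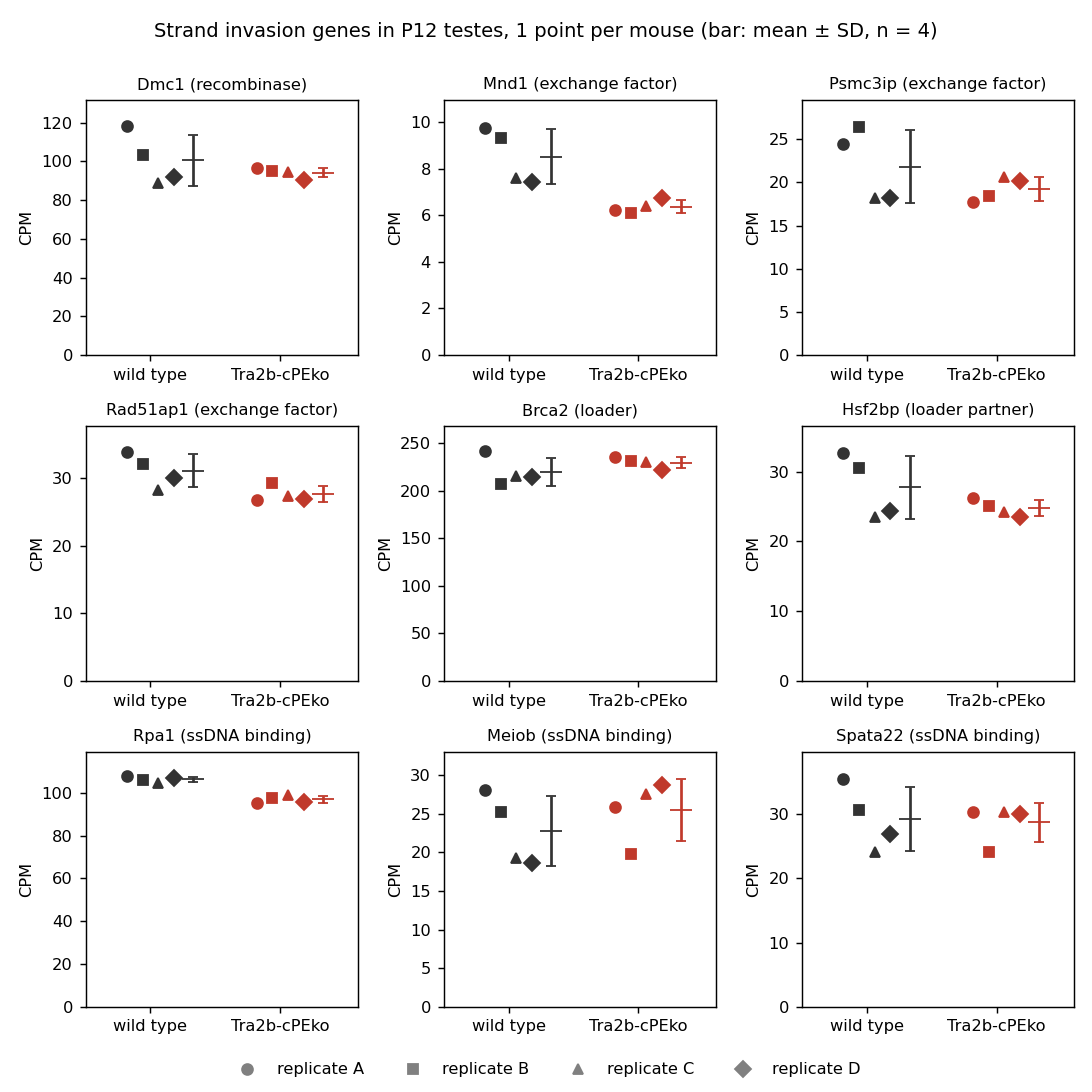
Expression of the 9 genes in CPM (vertical axes, from 0), 1 point per mouse with the replicate letter as marker shape, and bars for mean ± SD (n = 4) of wild type (dark) and *Tra2b-cPEko* (red). *Mnd1* and *Rpa1* are the panels in which the genotypes separate, and in most panels wild type A and B stand above C and D.

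*Brca2* (chr5:150446057-150496080, plus strand) encodes the protein that loads recombinase onto single-stranded DNA. Values were 241.8, 207.3, 215.5 and 214.5 CPM in wild type replicates A to D and 235.5, 230.8, 230.6 and 221.6 CPM in *Tra2b-cPEko* replicates. Wild type A was above all *Tra2b-cPEko* mice and the other wild type mice were below them. On the log2 scale *Tra2b-cPEko* minus wild type was 0.06 (standard error 0.05, 95% interval -0.05 to 0.17), and the edgeR adjusted p was 0.571. The interval spans less than that of any other member except *Rpa1*, and *N4bp2l1* (1275 to 1987 counts per library), on the other strand, overlaps and shares sequence with *Brca2*.

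*Hsf2bp* (chr17:32161237-32255368, minus strand) encodes the germ cell partner that brings BRCA2 to breaks. It had 32.7, 30.5, 23.5 and 24.4 CPM in wild type replicates A to D, and 26.3, 25.1, 24.1 and 23.5 CPM in *Tra2b-cPEko* replicates. Again wild type A and B were the highest of the 8 mice, and the rest overlapped. The fitted difference was -0.16 on the log2 scale, with standard error 0.10 and 95% interval -0.38 to 0.06, and the edgeR adjusted p was 0.464. *Rrp1b*, which overlaps *Hsf2bp* on the other strand, had 2053 to 3655 counts per library. The log2 ratio of *Hsf2bp* to *Brca2* ranged from -3.20 to -2.77 in wild type and from -3.26 to -3.16 in *Tra2b-cPEko* testes, which overlapped.

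*Rpa1* (chr11:75188992-75239455, minus strand) encodes the large subunit of RPA, which serves replication and repair in every cell and is thus not particular to germ cells. Wild type testes had 107.7, 105.8, 104.8 and 107.1 CPM in replicates A to D, and *Tra2b-cPEko* testes had 95.2, 97.6, 98.9 and 95.9 CPM. These were the tightest groups among the members, and they did not overlap. edgeR fitted a log2 fold change of -0.13, of which the standard error was 0.04 and the 95% interval -0.21 to -0.05, with an edgeR p of 0.00335 and an adjusted p of 0.142. DESeq2 gave -0.14 with an adjusted p of 0.0134. The exact permutation p was 0.0286.

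In DESeq2 fits that left out 1 mouse each, *Rpa1* passed without wild type C (adjusted p = 0.023) or *Tra2b-cPEko* B (0.0494). It did not pass without any of the other mice, where the adjusted p from DESeq2 was between 0.0542 and 0.129. Over the alternatives with edgeR or limma it was between 0.0925 and 0.303, and the fold change lay between -0.15 and -0.12 in all 23. *Smyd4* overlaps *Rpa1* on the other strand and had 823 to 1337 counts per library, against 3520 to 6320 for *Rpa1*.

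*Meiob* (chr17:25023263-25058762, plus strand) encodes a meiotic relative of RPA1 that works with SPATA22. It was at 28.0, 25.2, 19.3 and 18.6 CPM in wild type replicates A to D and at 25.8, 19.8, 27.6 and 28.7 CPM in *Tra2b-cPEko* replicates. Values overlapped, with *Tra2b-cPEko* B close to wild type C and D and the other *Tra2b-cPEko* mice close to wild type A and B. The log2 fold change of 0.16 was the highest of the members and also had the widest interval, from -0.20 to 0.53 (standard error 0.16), and the edgeR adjusted p was 0.663. *Fahd1* overlaps *Meiob* on the other strand, with 384 to 632 counts per library.

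*Spata22* (chr11:73217403-73237449, plus strand) encodes the partner of MEIOB. It was at 35.6, 30.7, 24.1 and 26.9 CPM in wild type and at 30.4, 24.2, 30.4 and 30.0 CPM in *Tra2b-cPEko* replicates A to D. The *Tra2b-cPEko* mice again lay inside the wild type range, and replicate B was the low one, as for *Meiob*. On the log2 scale *Tra2b-cPEko* minus wild type was -0.02 (standard error 0.12, 95% interval -0.29 to 0.24), and the edgeR adjusted p was 0.944. Its sign turned, to 0.080 without wild type A and to 0.046 without *Tra2b-cPEko* B. *Aspa* overlaps *Spata22* on the other strand, with 100 to 192 counts per library. The log2 ratio of *Meiob* to *Spata22* ranged from -0.53 to -0.28 in wild type and from -0.29 to -0.06 in *Tra2b-cPEko* testes. The ratio of *Meiob* to *Rpa1* ranged from -2.52 to -1.94 and from -2.31 to -1.74, and both ratios overlapped between genotypes.

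**Figure D2:**
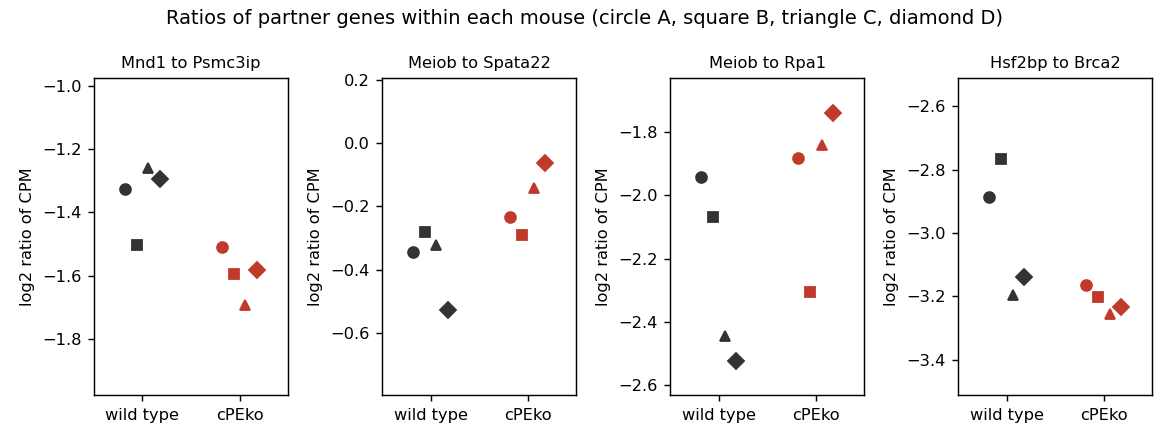
Log2 ratio of CPM between partner genes within each mouse (vertical axes, each spanning 1 log2 unit), with wild type dark and *Tra2b-cPEko* red. Only *Mnd1* to *Psmc3ip* separates the genotypes among the 4 pairs, and its closest mice are wild type B and *Tra2b-cPEko* A.

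Counted over the 9 members, edgeR called 0, limma-voom 0 and DESeq2 2, *Mnd1* and *Rpa1*, both lower in *Tra2b-cPEko* testes. Of all genes DESeq2 called 1.14% as lower, and edgeR called 0.157% in either direction. The unadjusted edgeR p was under 0.05 in 3 members, *Mnd1*, *Rpa1* and *Rad51ap1*, all lower, against 7.07% of all genes. CPM did not overlap between genotypes in 2 members, *Mnd1* and *Rpa1*, both lower, against 4.18% of all genes in this direction. The fitted fold change was below 0 in 7 of 9 members, against 50.3% of all genes, and the median log2 fold change of the members was -0.13 against -0.001 over all genes. The genes share libraries and cell types, so they are not independent of one another.

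**Figure D3:**
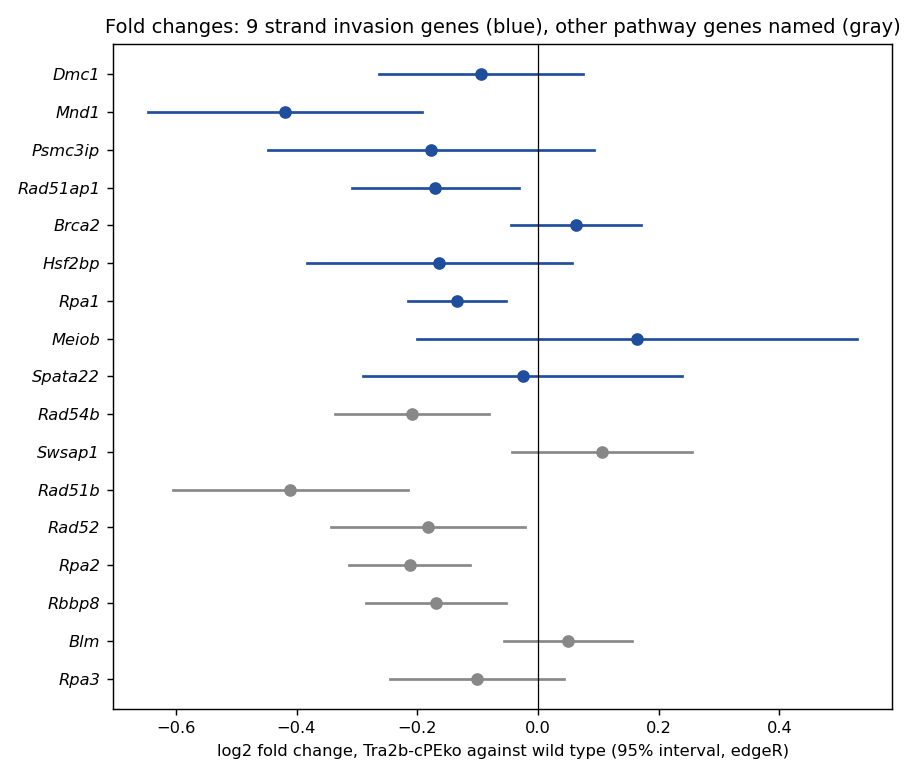
Log2 fold change of *Tra2b-cPEko* against wild type with 95% intervals from edgeR (horizontal axis) for the 9 genes (blue) and other pathway genes (gray). The intervals of *Mnd1*, *Rpa1* and *Rad51ap1* lie below 0 without adjustment, and those of the other 6 members include 0.

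Levels of different genes were compared only per length, as CPM per kilobase of all annotated exons of the gene. In wild type testes *Dmc1* was the highest, at 29.5 ± 3.88 CPM per kb (mean ± SD, n = 4, as for the values that follow). *Spata22* (14.5 ± 2.46), *Rpa1* (13.4 ± 0.162), *Brca2* (13.4 ± 0.920) and *Meiob* (11.8 ± 2.36 CPM per kb) followed, and each overlapped its neighbour in the order. *Psmc3ip* (7.49 ± 1.46), *Rad51ap1* (5.73 ± 0.452), *Mnd1* (4.32 ± 0.599) and *Hsf2bp* (3.55 ± 0.579 CPM per kb) were lower.

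Among the lower 4, *Rad51ap1* was above *Mnd1* without overlap of the wild type mice, and the ranges of the other neighbours in the order overlapped. In *Tra2b-cPEko* testes *Dmc1* stood at 27.7 ± 0.729 and *Mnd1* at 3.23 ± 0.137 CPM per kb, and *Hsf2bp* was again the lowest at 3.17 ± 0.152. *Rpa1* went from rank 3 to rank 5, at 12.2 ± 0.210 CPM per kb, behind *Brca2* (14.0 ± 0.354) and *Meiob* (13.1 ± 2.06), a change of rank that depended on the length used. Per length of the longest coding transcript *Psmc3ip* was at 16.7 CPM per kb in wild type testes (rank 3), and *Rpa1* was at rank 2 in both genotypes, with 19.4 CPM per kb in wild type mice and 17.7 in *Tra2b-cPEko* mice. *Dmc1* was the highest, and *Mnd1* and *Hsf2bp* the lowest, by both lengths.

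The wild type mice differed among themselves in most members. In 7 of 9 members, all but *Brca2* and *Rpa1*, replicates A and B were both above C and D, an order that 23.8% of all genes showed. Replicate A was the highest of the 8 mice in 7 members, and replicate C was the lowest wild type mouse in 6. The *Tra2b-cPEko* mice were more alike. The SD of log2 CPM was larger in wild type than in *Tra2b-cPEko* mice in 8 of 9 members, against 62.0% of all genes, and the ratio of the SDs was 4.83 for *Dmc1*, 3.42 for *Hsf2bp* and 3.31 for *Mnd1*, with a median of 1.22 over all genes. *Rpa1* was the exception, at 0.707.

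**Figure D4:**
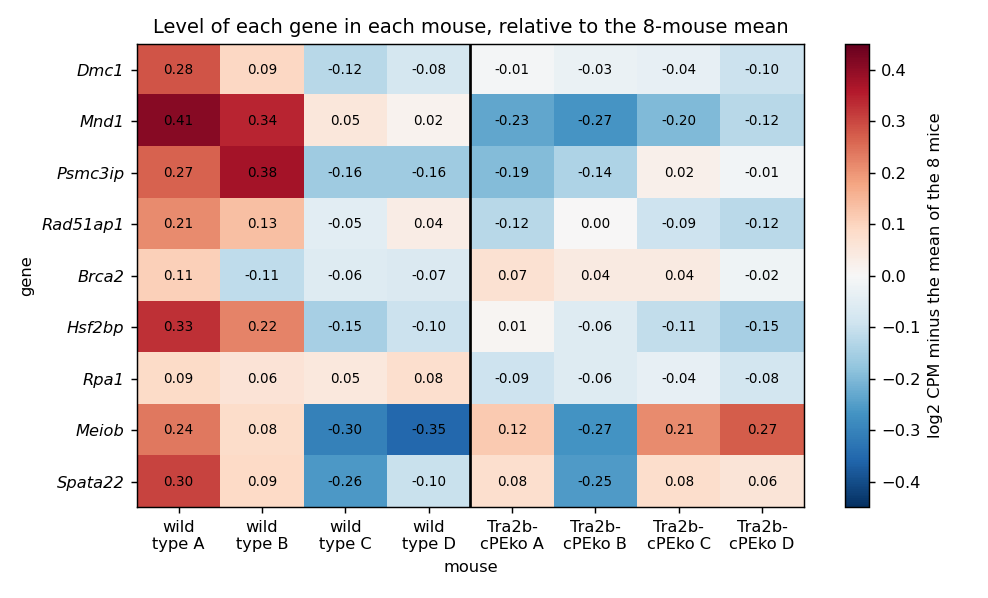
Log2 CPM of each gene in each mouse minus its mean over the 8 mice, as color and number, with wild type left and *Tra2b-cPEko* right of the line. Wild type A is above the mean in all 9 genes, and *Mnd1* and *Rpa1* are above it in every wild type and below it in every *Tra2b-cPEko* mouse.

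The leptotene, zygotene and pachytene markers followed this order of the wild type mice, and the spermatogonial markers did not. The summed level of 30 leptotene and zygotene genes was 4576, 3989, 3516 and 3684 CPM in wild type replicates A to D, and between 3471 and 3799 CPM in *Tra2b-cPEko* mice. That of 12 pachytene genes was 378.0, 391.3, 189.9 and 228.7 CPM in wild type, and between 208.6 and 266.6 CPM in *Tra2b-cPEko* mice. Replicates A and B were below C and D in the summed genes of undifferentiated spermatogonia (272.4, 269.0, 314.5 and 312.8 CPM in A to D), and A and B were at 777.5 and 745.7 and C and D at 820.7 and 787.2 CPM in those of differentiating spermatogonia. The order of A and B above C and D was shown by 21 of 30 leptotene and zygotene genes, 7 of 9 pachytene, 1 of 8 differentiating and 2 of 10 undifferentiated spermatogonial genes. The study's methods state that the precise age of P12 testes may vary. In whole testes fewer cells of a type and less RNA per cell cannot be told apart, and the part of cell composition in the values of the members was not tested.

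Of the leptotene and zygotene genes 27 of 30 had a fitted fold change below 0, with a median of -0.17 on the log2 scale, and edgeR called 0 of them (DESeq2 3, unadjusted edgeR p under 0.05 in 10 lower and 1 higher). The pachytene list had a median of -0.47 over the 9 genes tested, with 0 called by edgeR and 0 by DESeq2, and 1 with an unadjusted edgeR p under 0.05. The 8 genes of differentiating spermatogonia all had a fold change below 0 (median -0.19) and their summed level did not overlap, at 745.7 to 820.7 CPM in wild type and 634.2 to 739.6 CPM in *Tra2b-cPEko* testes. Of these edgeR called 1, *Sohlh1*, a transcription factor gene that was lower, and DESeq2 2. The 10 genes of undifferentiated spermatogonia (median -0.08, 0 called by edgeR and 1 by DESeq2, unadjusted edgeR p under 0.05 in 2) overlapped, at 269.0 to 314.5 and 275.8 to 294.2 CPM. So did the 10 Sertoli cell genes (median -0.05, 0 called by edgeR or DESeq2, unadjusted edgeR p under 0.05 in 1), at 6982 to 7379 and 6891 to 7666 CPM. Apart from the 1 higher leptotene or zygotene gene, the genes called or with an unadjusted p under 0.05 here were lower. Of all genes 7.07% were lower with an unadjusted edgeR p under 0.05, and DESeq2 called 1.14% as lower. In either direction edgeR called 0.157%.

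The other somatic lists had medians above 0, with a log2 fold change of 0.43 over 6 Leydig genes, 0.28 over 7 macrophage genes, 0.08 over 7 peritubular and stromal genes and 0.02 over 5 endothelial genes. The macrophage genes summed to 122.1 to 156.4 CPM in wild type and 153.3 to 185.5 CPM in *Tra2b-cPEko* testes, and the Leydig genes to 358.1 to 438.4 and 392.5 to 626.0 CPM. Peritubular and stromal genes summed to 2659 to 2994 and 2691 to 3092 CPM, and endothelial genes to 145.6 to 174.5 and 150.0 to 170.1 CPM. In these 4 lists edgeR called 0, DESeq2 called 1 Leydig and 1 macrophage gene as higher, and the unadjusted edgeR p was under 0.05 in 1 Leydig, 4 macrophage, 1 peritubular or stromal and 0 endothelial genes, all higher. The shares of all genes in the higher direction are not given here, so these counts are not set against a background. No marker of any list was at 0 in all libraries. Their part in the values of *Mnd1* and *Rpa1* was not tested.

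The 5 genes whose profile over the 8 mice was closest to the mean profile of the members were *Sycp2*, *Spdya*, *Cep72*, *Ccdc117* and *Hormad2*. The measure was the root mean square distance between profiles of log2 CPM scaled to mean 0 and SD 1, which was 0.275, 0.278, 0.280, 0.288 and 0.298 for these genes, against a median of 1.17 over 15468 genes with at least 1 CPM. *Sycp2* and *Hormad2* encode proteins of the meiotic chromosome axis, and *Spdya* an activator of CDK2. Among the members *Dmc1* (0.334) and *Hsf2bp* (0.374) were nearest to the mean profile, which they helped to form, and *Brca2* (0.999), *Rpa1* (0.814) and *Meiob* (0.813) were farthest.

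Other genes of the pathway were taken from a list of 22 recombinase partners, of which 21 were found and tested, and a list of 7 end resection genes. Of the partner genes edgeR called 0 and DESeq2 3, and the unadjusted edgeR p was under 0.05 in 4, all lower in *Tra2b-cPEko* testes, where the shares of all genes in this direction were 1.14% for DESeq2 and 7.07% for the unadjusted p. The fold change was below 0 in 18 of 21, with a median of -0.08 on the log2 scale, and CPM did not overlap in 4, all lower, against 4.18% of all genes. The summed level of these 21 genes was 938.5 to 1024 CPM in wild type and 927.0 to 937.9 CPM in *Tra2b-cPEko* testes.

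*Rpa2*, the gene of the middle subunit of RPA, separated the genotypes as *Rpa1* did. It had 107.6, 109.3, 100.6 and 105.1 CPM in wild type replicates A to D and 95.5, 91.5, 85.7 and 91.9 CPM in *Tra2b-cPEko* replicates. Every *Tra2b-cPEko* mouse was below every wild type mouse. edgeR fitted -0.21 on the log2 scale with a standard error of 0.05, and the adjusted p was 0.0892 in edgeR and 0.00302 in DESeq2. *Rpa3*, the gene of the small subunit, was looked up after the values of the others were seen. It stood at 17.2 to 19.6 CPM in wild type and 16.3 to 18.1 CPM in *Tra2b-cPEko* testes, which overlapped, with a log2 fold change of -0.10 (standard error 0.07) and an adjusted p of 0.495 from edgeR.

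*Rad51b*, a recombinase paralogue that helps filaments to form, had 5.72 ± 0.208 CPM in wild type and 4.30 ± 0.139 CPM in *Tra2b-cPEko* testes, with no overlap. Its log2 fold change of -0.41 (standard error 0.09) was the largest in size of the partner genes, with an adjusted p of 0.0892 from edgeR and 0.00971 from DESeq2. *Rad54b*, which encodes a translocase that acts with recombinase, was at 26.8 ± 1.05 and 23.2 ± 1.28 CPM without overlap (log2 fold change -0.21, adjusted p = 0.144 from edgeR and 0.0371 from DESeq2). *Rad52*, a gene of single-strand annealing, was at 14.2 ± 0.587 and 12.5 ± 0.942 CPM, also without overlap, and passed neither test (adjusted p = 0.272 from edgeR and 0.215 from DESeq2). *Swsap1*, which supports filament formation, had the highest fold change of the list, 0.11, with an adjusted p of 0.489 from edgeR.

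Of the 7 end resection genes edgeR called 0 and DESeq2 0. The unadjusted edgeR p was under 0.05 in 1, *Rbbp8*, which encodes the factor CtIP that starts resection. It was at 98.0 ± 6.45 CPM in wild type and 87.2 ± 3.92 CPM in *Tra2b-cPEko* testes (SD, n = 4 each) without overlap, with a log2 fold change of -0.17 and an adjusted p of 0.183 from edgeR. In this direction 7.07% of all genes had an unadjusted edgeR p under 0.05 and 4.18% did not overlap. The helicase gene *Blm* had the highest fold change, 0.05, with an adjusted p of 0.662 from edgeR. The median of the list was -0.04.

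**Figure D5:**
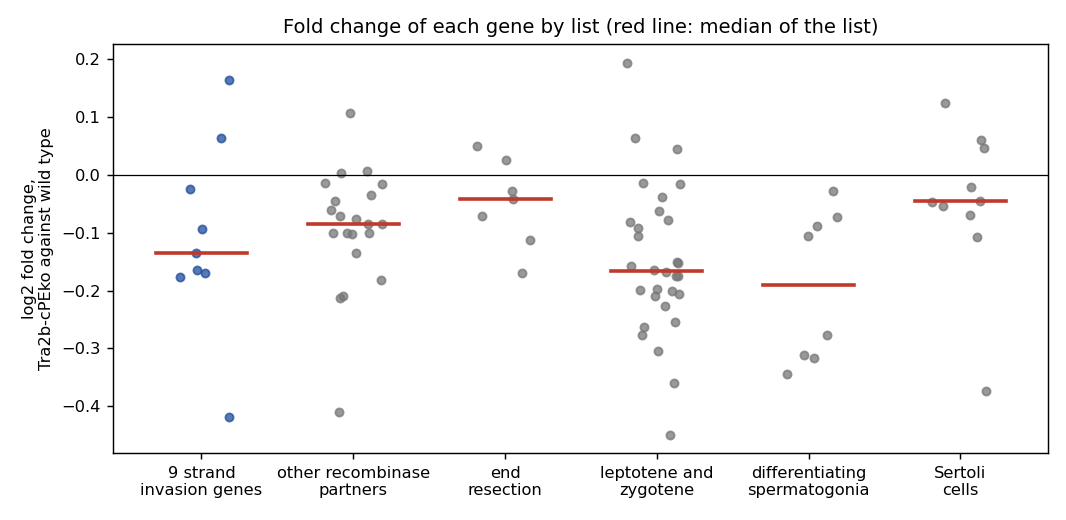
Log2 fold change of each gene from edgeR (vertical axis) by list, 1 point per gene tested, with red lines at the list medians. The medians are -0.13 for the 9 strand invasion genes, -0.08 for other partners, -0.04 for end resection and -0.17 for leptotene and zygotene genes, against -0.001 over all genes.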

How the data were processed

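Stranded mRNA libraries from 8 whole testes were read as pairs of 100 bases. The authors deposited raw counts per gene, 1 table per mouse, with 5 summary lines that were left out. The submitters' processing notes name HISAT2 2.2.1, SAMtools 1.7.1, HTSeq 2.0.2 and deepTools 3.5.1, and the study's methods name GRCm39 and Salmon. The tables have the form of htseq-count, and the strand setting is not given in the sources used here. Reads on genes were 66.4% to 69.0% of all reads.

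Counts were fitted in R 4.3.3 with edgeR 4.0.16 (filterByExpr with least count 10 and least total 15, TMM, robust quasi-likelihood F-test, genotype as the only term), with Benjamini-Hochberg adjustment over 19104 genes and a threshold of 0.05. DESeq2 1.42.0 (18149 genes with an adjusted p), limma 3.58.1 and the settings in the closing section were alternatives. For single values, log2 CPM was compared by an exact permutation test, two-sided. The scripts were tested on simulated data. The square root of the common dispersion was 9.56%, and the chi-square between libraries of 1 genotype was 6.28 to 19.2 per degree of freedom, above the counting noise of a copy. The mice were independent animals according to the methods. The members, lists, tests and alternatives were chosen with earlier results of these data known, and further alternatives (DESeq2 without each mouse, the count without overlap, another gene length) were added after the files were seen.

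Named genes were the 9 members, *Tra2b* and *Tra2a*, every gene of the partner and end resection lists with an unadjusted p under 0.05 and the gene of each list with the largest fold change in each direction, and the 5 genes nearest in profile. *Rpa3*, *Sohlh1* and the genes of partner complexes in the closing section fall outside this rule and were chosen after their values were seen. *Brme1* was matched through the synonym *4930432K21Rik*, and *Firrm* was not matched. Positions and exon lengths are from GENCODE vM39, and copies were searched with BLAST+ 2.17.0. Promoters of 8 members matched a RefSeq table, and *Meiob* was not matched. Splicing was not analysed here.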

Additional observations from a re-analysis of the deposited data

Results flagged for a closer look

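A single mouse stood apart from the other 3 of its genotype in 3 of 36 groups of 4 tested (18 genes in both genotypes), by Dixon's ratio of the gap to the whole range. Chance gives about 1 in 20, or 1.8 of 36. *Spata22* was at 24.2 CPM in *Tra2b-cPEko* replicate B, against 30.0 to 30.4 CPM in the other 3 (ratio 0.932), and its fold change turns sign without that mouse. *Rad52* was at 11.1 CPM in *Tra2b-cPEko* replicate C, against 12.9 to 13.1 CPM in the other 3 (ratio 0.88). *Rbbp8* was at 107.7 CPM in wild type replicate A, against 94.4 to 95.4 CPM in the other 3 (ratio 0.922).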

How the results depend on the processing

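With DESeq2 in place of edgeR the count of members with an adjusted p under 0.05 was 2 in place of 0 (507 in place of 30 over all genes), and that of recombinase partner genes was 3 in place of 0 (*Rad51b*, *Rad54b* and *Rpa2*). Without a low-count filter it was 1 for partner genes (*Rpa2*). In each of 6 other fits (limma-voom, RLE factors, upper-quartile factors, a replicate block, without the filter, and with genes of a mean count over 50) 0 members passed. Leaving out each mouse in turn gave 0 to 3 members and 0 to 3 partner genes, all of the counts above 0 from DESeq2, which called 110 to 1025 of all genes in these fits (1025 without wild type C, which gave the 3 members). It also gave 2 to 3 members without overlap, where 10.4% to 17.1% of all genes did not overlap. The third member without overlap was *Brca2*, higher, without wild type A, and *Rad51ap1* without wild type C or *Tra2b-cPEko* B. End resection genes gave 0 in every alternative. The log2 fold change of *Spata22* was between -0.11 and 0.080 with a mouse left out, and above 0 without wild type A (0.080 with edgeR, 0.078 with DESeq2) and without *Tra2b-cPEko* B (0.046 and 0.046), and the cause was not tested. The other 8 members kept their direction in all 23 alternatives.

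Pairing of the mice by replicate letter was not seen. The correlations of same-letter deviations were 0.027, -0.135, -0.039 and 0.116 for A to D, and those of different letters were between -0.098 and 0.154. These correlations cannot show whether mice of the same letter shared a litter or a batch. With the replicate block the adjusted p was 0.130 for *Mnd1* and 0.194 for *Rpa1* (0 members called, 67 genes over all). By the count of all genes called, edgeR gave 30, or 123 without the filter, 14 over a mean count of 50, 58 with upper-quartile factors and 3 to 84 with a mouse left out.

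*Mnd1* had the fewest reads of the members, 224 to 438 per mouse, and all intervals rest on 4 mice per genotype.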

Other observations

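The partner list holds groups that form complexes, and their log2 fold changes in *Tra2b-cPEko* against wild type testes are given as values. The recombinase paralogues *Rad51c*, *Rad51d*, *Xrcc2* and *Xrcc3* were at -0.09, -0.07, -0.10 and -0.08, beside *Rad51b* at -0.41. The SWI5 and SFR1 accessory complex was at -0.03 for *Swi5* and 0.003 for *Sfr1*. *Zswim7* and *Spidr*, which act with *Swsap1*, were at -0.06 and -0.10, where *Swsap1* was at 0.11. *Palb2*, which links BRCA2 to chromatin, was at -0.01, and *Brme1*, the partner of *Hsf2bp*, was at -0.10. *Rad51b* was the single gene among these with an unadjusted edgeR p under 0.05. *Rad51b* and *Mnd1*, the lowest fold changes of their lists, were also genes of low counts, at 161 to 337 and 224 to 438 reads per mouse.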
